A study of Mus musculus with 3 samples.

Results

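Genes with a robust signal in both wild-type (WT) and Pcgf1 knockout (Pcgf1-/-) mouse embryonic stem (ES) cells were compared here, and the ones that differed most between those 2 samples are described. The value of a gene was the larger of its summed FPKM over first exons and its summed FPKM over last exons, where FPKM is the number of fragments scaled to transcript length and library size. Genes at 5 FPKM or above in both samples were kept, which left 6138 of the 25613 genes listed under a single name in both samples. At that limit stood 6759 genes in WT and 6530 in Pcgf1-/- cells.

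The study profiled poly(A) RNA of C57BL/6 ES cells from 3 cultures, 1 library each, so no difference below has a replicate check and none was tested. The WT cells are labelled wildtype, the Pcgf1-/- cells Pcgf1KO, and the remaining culture, Pcgf1KO+Pcgf1_flag, is the knockout line given Pcgf1 with a FLAG tag back from a lentiviral vector (Pcgf1-/-+Pcgf1, here also called rescued). All 3 cultures grew in serum and leukemia inhibitory factor on mouse embryonic fibroblasts that had been inactivated with mitomycin-C. The knockout was made with Cas9 and a pair of guide RNAs against exons 2 and 3 of Pcgf1 and was taken from selected colonies, so differences between clones and the loss of Pcgf1 cannot be told apart. The Pcgf1-/-+Pcgf1 value stands beside the other 2 for each gene and was not used to choose the genes.

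Pcgf1 is the Polycomb group RING finger subunit that defines PRC1.1, a variant Polycomb repressive complex 1. In this complex the ubiquitin ligase Rnf2 places a single ubiquitin on histone H2A, Bcor is a scaffold, and Kdm2b brings the complex to CpG islands that carry no DNA methylation. Many genes near such islands encode developmental regulators that are silent or weak in ES cells, whereas the genes described here are those that both cultures transcribed well.

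Pcgf1 itself was at 13.95 FPKM in WT, 5.88 in Pcgf1-/- cells and 7.86 in rescued cells. It was highest in WT, and the log2 ratio of Pcgf1-/- to WT, taken on FPKM plus 0.1 as everywhere below, was -1.23. The gene lies on chromosome 6 of mm10 from 83077869 to 83080855. Its value is listed for the first and the last exon, which lie outside the targeted exons 2 and 3. The first-exon and last-exon values were equal in each culture. Which fragments they count cannot be told, so the value is no measure of the deletion.

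The cells carried the RNA of ES cells in every culture. Of 9 ES cell markers, 7 were among the 6138 genes and none of these 7 was past 2-fold. Pou5f1, the Oct4 gene, was at 670 FPKM in WT, 518 in Pcgf1-/- cells and 626 in rescued cells. Nanog was at 68.2, 46.3 and 123 FPKM in the same order. Utf1, a chromatin factor of pluripotent cells, was at 600, 678 and 464 FPKM. The other 2 markers, Sox2 and Dppa5a, were not listed under a single name in both WT and Pcgf1-/- cells. Of 35 fibroblast markers, 32 were listed in all 3 cultures, and their summed FPKM was 348 in WT, 243 in Pcgf1-/- cells and 260 in rescued cells. Among them, 9 were lower in Pcgf1-/- cells past 2-fold and none was higher. Of these 9, 3 reached the limit of 5 FPKM in both samples. Over all 25613 genes listed in both samples, 5.08% were lower past 2-fold and 2.16% higher. The markers Postn and Igfbp7 were listed at 0 in all 3 cultures, but so were genes such as Dnajb11, a chaperone of the endoplasmic reticulum, and Psph, an enzyme of serine synthesis, so a listed 0 does not show that the RNA was lacking. Col1a1 stood at 1.88 FPKM in WT and 0.39 in Pcgf1-/- cells. In such bulk samples, fewer cells of a type and less RNA per cell cannot be told apart.

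Most of the 6138 genes differed little. The log2 ratio had a median of -0.06 and an SD over genes of 0.38, 1% of genes lay below -1.06 and 1% above 1.02, and 5502 genes (89.6%) stayed within 1.5-fold. Past 2-fold, 64 genes were higher in Pcgf1-/- cells (1.04%) and 74 were lower (1.21%), 138 in all (2.25%). The median log2 ratio of all genes above 0 in both samples, here taken without the added 0.1, was -0.11. With the ratios of the same 6138 genes scaled to it, 96 were higher and 52 lower, and with the limit also applied to the scaled values, which kept 6230 genes, 96 were higher and 58 lower. The direction of the larger share therefore depends on the scale. The same fold in the whole list of 25613 genes held for 553 higher (2.16%) and 1300 lower genes (5.08%). Among the genes at 5 FPKM or above, 14 were higher and 14 lower past 3-fold, and 4 and 6 past 4-fold. The share past 2-fold was 0.581% of 1376 genes with a mean of 5 to 10 FPKM, where the limit itself leaves little room, 2.99% of 1742 genes at 10 to 20 FPKM and 2.01% of 596 genes at 100 FPKM or above.

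**Figure D1:**
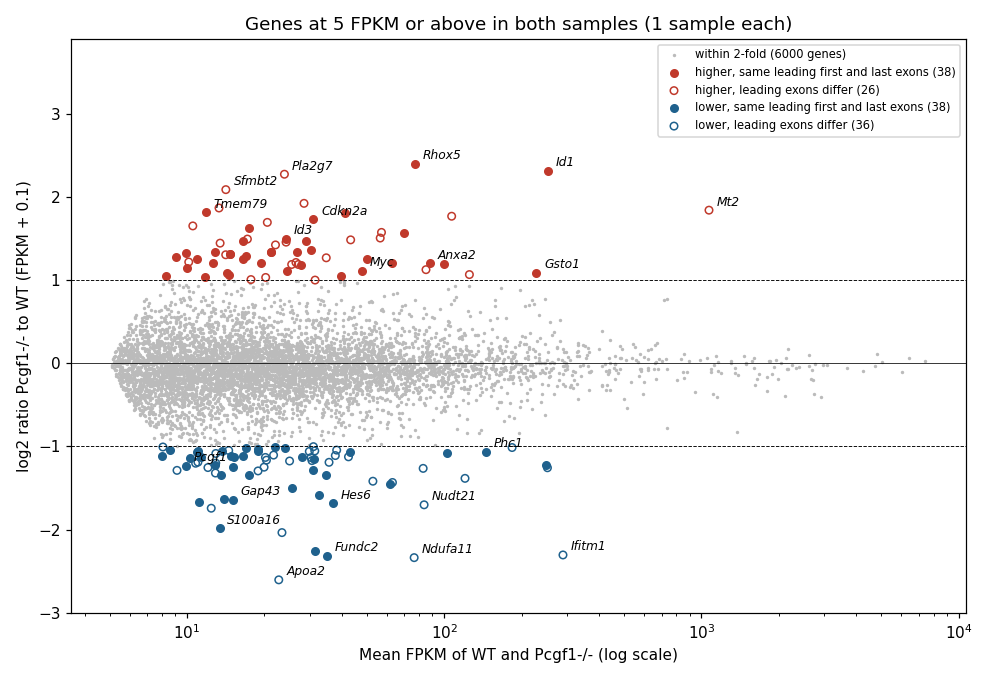
Mean FPKM of WT and Pcgf1-/- cells (x axis, log scale) against the log2 ratio of Pcgf1-/- to WT on FPKM plus 0.1 (y axis), 1 point per gene, 1 sample each. Of 6138 genes, 64 lie above and 74 below the dashed lines at 2-fold, and filled points mark the 38 higher and 38 lower genes with the same leading first and last exons in both samples.

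The value of a gene depends on how its transcripts were assembled in each sample. The exon with the greatest FPKM was taken as the leading exon, and its outer end was called the same in both samples within 100 bases. Both leading ends were the same for 4948 of the 6138 genes (80.6%), for 38 of the 64 higher genes (59.4%) and for 38 of the 74 lower genes (51.4%). First-exon and last-exon sums were both past 2-fold in one direction for 49 higher genes (0.798%) and 48 lower genes (0.782%). The sums were equal or nearly so in both samples for 4314 of the 6138 genes. For such genes this condition repeats the ratio itself and is no second check. With both conditions together, 30 higher and 28 lower genes remained. The genes below are described first where the same ends carried the difference, and then where an end listed in a single sample did.

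Genes of the Id family were among the higher genes. Id proteins bind basic helix-loop-helix factors and keep them from DNA, and in ES cells bone morphogenetic protein (BMP) signals switch on Id genes through Smad factors. Id1 was at 85.1 FPKM in WT, 423 in Pcgf1-/- cells and 95.04 in rescued cells, a log2 ratio of 2.31. It is a short gene (chromosome 2, 152736251 to 152737410, plus strand), and only the Pcgf1-/- culture was high. Id3 was at 12.7, 35.9 and 31.0 FPKM, a log2 ratio of 1.50, with both knockout-derived cultures high. Its value rests on first exons, since its last exon was listed at 0 in WT and Pcgf1-/- cells. Id2 was at 74.7, 118 and 125 FPKM (0.66), where 3 values stand for WT, Pcgf1-/- and rescued cells in that order and the number in brackets is the log2 ratio of Pcgf1-/- to WT, here and below. Smad7, an inhibitor of the receptors that Smad factors serve, was at 8.33, 20.9 and 10.3 FPKM (1.32), again on first exons alone.

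Of the 15 genes on a list for Nodal and BMP signalling, 7 were well expressed, 3 of them were higher past 2-fold and none lower, and their median log2 ratio was 0.66 against -0.06 for all 6138 genes. Nodal, a ligand, was at 23.6, 24.8 and 22.7 FPKM and its co-receptor Tdgf1 at 449, 519 and 394 FPKM in WT, Pcgf1-/- and Pcgf1-/-+Pcgf1 cells. Skil, an inhibitor of Smad-driven transcription, was at 17.6, 27.2 and 16.9 FPKM. Bmp4, a BMP ligand, missed the limit of 5 FPKM in WT, where it stood at 2.64 FPKM, with 19.97 in Pcgf1-/- cells and 5.69 in rescued cells. Smad6, a further inhibitor, missed it as well, at 3.04, 6.89 and 3.78 FPKM. Also below the limit, Id4 was at 3.35, 6.70 and 2.45 FPKM. Lower values in Pcgf1-/- cells than in WT were found for Bambi, a decoy receptor, at 2.84, 2.17 and 2.12 FPKM, and for Acvr2b, an activin receptor at 4.20 and 4.24 FPKM in WT and rescued cells and listed at 0 in Pcgf1-/- cells. Genes below the limit in WT but above it in Pcgf1-/- cells, such as Bmp4, had to be higher there.

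**Figure D2:**
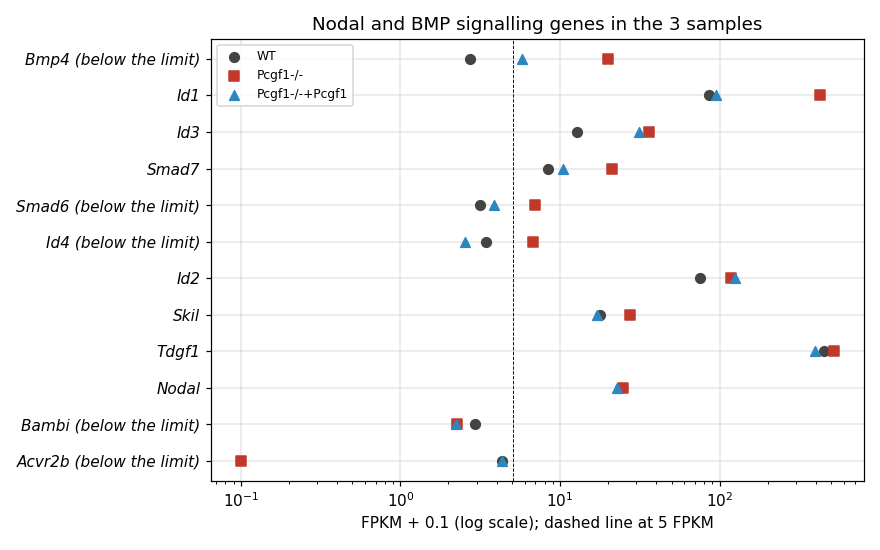
FPKM plus 0.1 (x axis, log scale) of the 12 genes on the Nodal and BMP signalling list that were listed in WT and Pcgf1-/- cells and reached 1 FPKM in any culture, 1 point per culture. Id1 stands at 423 FPKM in Pcgf1-/- cells against 85.1 in WT and 95.04 in Pcgf1-/-+Pcgf1 cells, Bmp4 lies left of the dashed 5 FPKM line in WT alone, and Acvr2b was listed at 0 in Pcgf1-/- cells.

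Rhox5 had the greatest log2 ratio of all 6138 genes, 2.40. It is a homeobox gene of the reproductive Rhox cluster on the X chromosome (37804842 to 37808876, plus strand), which is active in germ cells, gonads and placenta. Its value was 24.4 FPKM in WT, 129 in Pcgf1-/- cells and 414 in rescued cells, so the culture with re-expressed Pcgf1 was the highest. In that culture the listed first exon lay upstream, from 37754458 to 37754657, and carried 188 FPKM, whereas WT and Pcgf1-/- cells shared the first exon at 37804842. Rhox6 stood at 5.49, 10.7 and 28.4 FPKM (0.95) and Rhox9 at 5.06, 7.08 and 16.8 FPKM (0.48). Of 31 germline genes on the list, 4 were well expressed, 1 of them past 2-fold, with a median log2 ratio of 0.71. The germ cell RNA helicase gene Ddx4, the remaining one, was at 7.01, 8.88 and 26.1 FPKM. All 4 were therefore highest in Pcgf1-/-+Pcgf1 cells. The median holds for these 4 genes alone and not for the germline list. Sycp3 and Piwil2 reached the limit in WT only, at 6.64 and 6.16 FPKM against 3.50 and 4.52 in Pcgf1-/- cells. Below the limit in both samples, log2 ratios lay on both sides, such as -1.47 for Tex11 and -1.03 for Stag3, but 1.77 for Xlr3b and 1.475 for Dazl.

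Cdkn2a and Myc, both on the list of cell cycle regulators, were among the higher genes with the same ends. Cdkn2a, a locus of tumour suppressors, was at 14.3 FPKM in WT, 47.7 in Pcgf1-/- cells and 6.30 in rescued cells, a log2 ratio of 1.73. All of this signal was on the upstream first exon (chromosome 4, 89294334 to 89294653, minus strand), which begins the Arf transcript, whose product restrains Mdm2 and so stabilises p53. The downstream first exon, 89281986 to 89282192, which begins the transcript of the Cdk4 inhibitor, was listed at 0 in all 3 cultures. As above, a listed 0 does not show that this RNA was lacking. Myc, the transcription factor, was at 30.3, 65.5 and 23.2 FPKM (1.11). Mycn, its relative, stood at 158, 88.3 and 128 FPKM (-0.83), and cyclin D3 (Ccnd3) at 116, 217 and 118 FPKM (0.90). Of 16 cell cycle regulators that were well expressed, 2 were higher and none lower, with a median of -0.07. On a list of p53 targets, which also holds the p53 gene Trp53, 13 genes were well expressed. Of these 13, only Perp, a gene of cell adhesion and cell death, was past 2-fold, at 17.0, 43.7 and 14.03 FPKM (1.36). Cdkn1a stood at 16.9, 14.9 and 11.8 FPKM.

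The promoter window of Cdkn2a is shown because the Arf first exon carried the whole listed difference. It is the RefSeq window of 300 bases (GRCm38.p6, chr4:89294570-89294869, minus strand), with every CG in capitals. It holds 45 CpG dinucleotides, a ratio of observed to expected CpG of 1.04, against a median of 0.82 for the 5012 of 6138 genes that could be matched to a window.
Cdkn2a: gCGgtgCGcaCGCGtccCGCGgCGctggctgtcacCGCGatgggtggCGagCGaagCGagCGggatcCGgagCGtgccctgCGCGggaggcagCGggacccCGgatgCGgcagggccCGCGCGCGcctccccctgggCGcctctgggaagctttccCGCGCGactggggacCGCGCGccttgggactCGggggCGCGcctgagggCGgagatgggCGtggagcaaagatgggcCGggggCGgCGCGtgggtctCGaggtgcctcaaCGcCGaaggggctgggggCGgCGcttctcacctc

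Col4a1 and Col4a2, the type IV collagen chains of basement membranes, lie head to head on chromosome 8. Col4a1 was at 9.74 FPKM in WT, 24.02 in Pcgf1-/- cells and 7.14 in rescued cells (1.29), and Col4a2 at 5.36, 11.2 and 2.95 FPKM (1.05). Both were highest in Pcgf1-/- cells, and of 4 well-expressed collagen genes they were the 2 past 2-fold (median 0.68). Of the 6 well-expressed genes on the primitive endoderm list these 2 alone were past 2-fold, and the laminin chains of the same membranes were not, with Lama1 at 22.9, 13.8 and 15.4 FPKM, Lamb1 at 34.7, 34.2 and 34.6 FPKM, and Lamc1 at 68.7, 51.2 and 51.3 FPKM. The annotated ends of the 2 collagen genes overlap, from 11312805 to 11312826, and strand was not stated for the counting, so reads in the overlap cannot be assigned to one gene.

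The window between them is shown because both genes start in it (RefSeq, GRCm38.p6, chr8:11312777-11313076, minus strand, as read for Col4a1). Capitals mark CG. It holds 37 CpG, an observed to expected ratio of 0.90.
Col4a1: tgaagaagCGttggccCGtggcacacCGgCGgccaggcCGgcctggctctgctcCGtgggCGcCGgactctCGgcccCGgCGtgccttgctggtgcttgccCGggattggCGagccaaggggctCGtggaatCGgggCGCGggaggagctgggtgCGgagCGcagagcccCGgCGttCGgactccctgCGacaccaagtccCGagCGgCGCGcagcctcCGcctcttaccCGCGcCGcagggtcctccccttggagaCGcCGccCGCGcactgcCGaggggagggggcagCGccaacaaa

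Further genes were picked from among the higher ones with the same ends after their values had been seen. Etv4, an ETS factor downstream of fibroblast growth factor, was at 29.7 FPKM in WT, 70.7 in Pcgf1-/- cells and 25.4 in rescued cells (1.25). It was the 1 gene past 2-fold among 9 of the FGF and ERK feedback list, whose median was -0.02, and its relative Etv5 stood at 100.5, 98.9 and 116 FPKM. Epas1, which encodes the hypoxia factor HIF-2 alpha, was at 12.04, 30.5 and 12.7 FPKM (1.33). Ak4, a mitochondrial adenylate kinase induced by low oxygen, was at 15.2, 38.6 and 23.4 FPKM (1.33) and was the 1 gene past 2-fold of 16 on the hypoxia response list, whose median was 0.17. Anxa2, a calcium-dependent membrane binder, was at 53.4, 123 and 52.3 FPKM (1.20). Gsto1, a glutathione transferase, was at 146, 311 and 108 FPKM (1.09). Hbegf, a ligand of the epidermal growth factor receptor, was at 7.28, 18.5 and 6.03 FPKM (1.33), and Erbb3, a receptor of the same family, at 6.22, 13.9 and 7.46 FPKM (1.14). For each of these 7 genes other than Ak4 the WT and Pcgf1-/-+Pcgf1 values lay within 1.5-fold of each other, with Pcgf1-/- cells alone high. Tfap2c, a factor of trophoblast and germ cells, was at 9.10, 19.4 and 16.6 FPKM (1.08), with both knockout-derived cultures high. It was the 1 gene past 2-fold among 8 well-expressed genes of the trophoblast and simple epithelium list, whose median was -0.15.

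Also picked after the values had been seen, Cpt1a, which loads fatty acids for import into mitochondria, was at 7.60 FPKM in WT, 17.7 in Pcgf1-/- cells and 8.61 in rescued cells (1.20), and Acaa2, a thiolase of fatty acid oxidation, at 15.4, 42.8 and 20.7 FPKM (1.46). Peg10, an imprinted gene of retrotransposon origin, was at 60.3, 139 and 85.6 FPKM (1.20), whereas Peg3, an imprinted zinc finger gene, was lower at 32.2, 15.8 and 37.9 FPKM (-1.02). These were the 2 of 13 imprinted genes past 2-fold, and the median of the 13 was -0.02. Bcl3, an NF-kappaB cofactor and target of Stat3, was at 8.39, 20.9 and 11.7 FPKM (1.31) on first exons alone. Tmem79, a membrane protein of the skin barrier, was at 5.19, 18.5 and 7.36 FPKM (1.81), and Plekha2, an adaptor that binds membrane phosphoinositides, at 8.46, 26.4 and 9.94 FPKM (1.63).

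**Figure D3:**
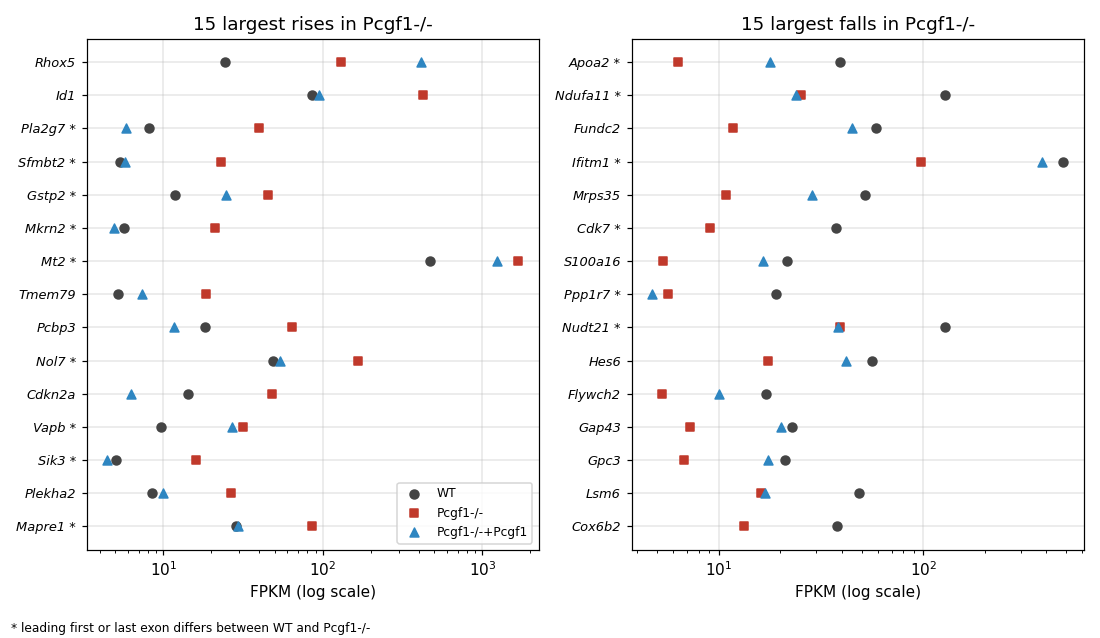
FPKM (x axis, log scale) in WT, Pcgf1-/- and Pcgf1-/-+Pcgf1 cells of the 15 genes with the largest rises and the 15 with the largest falls, 1 point per culture. Asterisks mark genes whose leading first or last exon differs between WT and Pcgf1-/- cells. Rhox5 is highest in Pcgf1-/-+Pcgf1 cells, and Cdk7 and Cox6b2 lack the point of that culture because they were not listed under a single name there.

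The metallothioneins are small proteins that bind zinc and copper, and their genes answer to metal and oxidative stress through the factor Mtf1. Mt2 was at 467 FPKM in WT, 1674 in Pcgf1-/- cells and 1228 in rescued cells (1.84), and the neighbouring Mt1 at 531, 902 and 1015 FPKM (0.76). Both genes were higher in both knockout-derived cultures than in WT. For Mt2 the last exon was the same in all 3 cultures, but in Pcgf1-/- cells the signal was assigned to a first exon of 39 bases from 94172072 to 94172110, upstream of the exon from 94172618 to 94172875 used in WT. Of 11 well-expressed genes on the metallothionein and oxidative stress list, 1 was past 2-fold and the median was 0.32. Hmox1, heme oxygenase, was at 54.1, 77.7 and 61.8 FPKM (0.52), and Prdx1, a peroxiredoxin, at 929, 544 and 979 FPKM (-0.77).

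Both promoter windows are shown because the core of the metal response element, TGCNCNC, recurs in them (RefSeq, GRCm38.p6, plus strand, chr8:94172368-94172667 for Mt2 and chr8:94178839-94179138 for Mt1). Capitals mark TGCNCNC on either strand, where overlapping matches would merge into 1 run. Mt2 holds 6 matches and Mt1 3. Among all 32851 windows of this length, 51.0% hold at least 1 match, 20.2% 2 or more, 7.10% 3 or more and 2.30% 4 or more. Among the 5012 windows matched to the well-expressed genes, 60.8% hold at least 1, 10.5% 3 or more and 3.67% 4 or more. A match describes letters only.
Mt2: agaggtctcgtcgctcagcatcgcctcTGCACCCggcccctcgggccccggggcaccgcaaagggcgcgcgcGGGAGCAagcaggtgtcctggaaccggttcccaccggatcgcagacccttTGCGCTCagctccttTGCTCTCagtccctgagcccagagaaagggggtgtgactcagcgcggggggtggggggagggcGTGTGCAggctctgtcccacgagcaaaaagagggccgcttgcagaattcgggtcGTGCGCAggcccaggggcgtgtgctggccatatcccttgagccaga
Mt1: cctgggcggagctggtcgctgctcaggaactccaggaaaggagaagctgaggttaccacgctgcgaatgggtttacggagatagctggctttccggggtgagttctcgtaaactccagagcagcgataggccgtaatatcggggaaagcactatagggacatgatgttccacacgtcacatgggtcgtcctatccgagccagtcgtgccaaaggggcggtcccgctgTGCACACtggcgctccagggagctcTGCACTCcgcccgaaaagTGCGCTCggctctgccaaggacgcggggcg

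Among the 15 largest falls, Ifitm1, an interferon-induced membrane protein that is abundant in ES and germ cells, was at 482 FPKM in WT, 97.5 in Pcgf1-/- cells and 379 in rescued cells (-2.30). Its leading exons were called different because a pair of overlapping first exons shared the signal, but both were lower, the one starting at 140968028 from 247 to 40.4 FPKM and the one starting at 140968040 from 234 to 57.0 FPKM, and the last exon was the same. It was the 1 gene past 2-fold among 5 well-expressed interferon response genes. S100a16, a calcium-binding protein, was at 21.5, 5.35 and 16.5 FPKM (-1.98). Gpc3, a heparan sulfate proteoglycan of the cell surface that modulates growth factors, was at 21.2, 6.74 and 17.5 FPKM (-1.64). Gap43, a membrane protein of neuronal growth cones, was at 22.8, 7.23 and 20.2 FPKM (-1.64). Hes6, a basic helix-loop-helix factor of neural development, was at 56.3, 17.5 and 41.7 FPKM (-1.68). In each of these 5 genes Pcgf1-/- cells alone were low.

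The windows of Ifitm1, S100a16 and Gpc3 are shown because the 3 lower genes contrast in CpG content (RefSeq, GRCm38.p6, chr7:140967826-140968125 plus strand, chr3:90540896-90541195 plus strand and chrX:52613925-52614224 minus strand). With CG in capitals, Ifitm1 holds 5 CpG (observed to expected 0.26), S100a16 4 (0.19) and Gpc3 30 (0.92).
Ifitm1: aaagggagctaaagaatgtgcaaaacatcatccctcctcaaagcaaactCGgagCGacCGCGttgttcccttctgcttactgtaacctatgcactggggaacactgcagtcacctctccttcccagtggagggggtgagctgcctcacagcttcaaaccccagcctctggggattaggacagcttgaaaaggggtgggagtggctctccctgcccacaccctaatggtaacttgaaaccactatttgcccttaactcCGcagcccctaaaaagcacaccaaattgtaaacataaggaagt
S100a16: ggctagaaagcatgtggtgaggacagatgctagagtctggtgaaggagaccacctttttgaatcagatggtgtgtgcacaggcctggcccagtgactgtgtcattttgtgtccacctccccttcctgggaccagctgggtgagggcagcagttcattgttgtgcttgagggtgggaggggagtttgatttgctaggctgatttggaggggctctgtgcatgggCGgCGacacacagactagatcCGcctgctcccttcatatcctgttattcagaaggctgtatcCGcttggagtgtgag
Gpc3: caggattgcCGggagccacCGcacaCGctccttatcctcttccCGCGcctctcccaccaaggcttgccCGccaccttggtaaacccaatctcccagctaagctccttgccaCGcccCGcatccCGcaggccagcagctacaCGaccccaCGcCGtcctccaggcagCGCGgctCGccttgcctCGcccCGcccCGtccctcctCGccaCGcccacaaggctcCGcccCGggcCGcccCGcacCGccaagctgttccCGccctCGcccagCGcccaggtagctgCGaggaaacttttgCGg

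A RefSeq window could be matched to 60 of the 74 lower genes (81.1%) but to only 43 of the 64 higher genes (67.2%), and 73.0% of the lower genes had one within 500 bases of the leading first exon. With shares under the 80% needed, a comparison of CpG content over the higher and the lower genes is void and none is given.

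Well-expressed pluripotency genes were mostly within 2-fold. Of 21 well-expressed genes on the naive pluripotency list, none was higher and 2 were lower past 2-fold, with a median of 0.01. Dppa3, also called Stella, which protects DNA methylation states in oocyte and early embryo, was at 38.3 FPKM in WT, 17.5 in Pcgf1-/- cells and 60.1 in rescued cells (-1.13). Alpl, the alkaline phosphatase used to stain ES colonies, was at 43.2, 19.3 and 50.2 FPKM (-1.16). Both were lowest in Pcgf1-/- cells. Esrrb stood at 85.3, 94.8 and 77.2 FPKM, Klf2 at 517, 590 and 357 FPKM, and Zfp42 at 35.5, 51.7 and 35.7 FPKM. Klf4 was below 5 FPKM in WT and Pcgf1-/- cells and so is not among the 6138 genes. None of the 16 mesoderm genes or the 12 neural ectoderm genes listed in both samples reached the limit in both.

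Most subunits of Polycomb complexes other than Pcgf1 stayed within 2-fold of WT in Pcgf1-/- cells. Among the 5 well-expressed genes of the PRC1.1 list, Rnf2, the ubiquitin ligase, was at 36.9 FPKM in WT and 39.4 in Pcgf1-/- cells, and it had no single-name value in Pcgf1-/-+Pcgf1 cells. Rybp, a cofactor of the ligase, was at 30.3, 40.3 and 12.6 FPKM, and its relative Yaf2 at 7.39, 8.16 and 5.87 FPKM. Bcor missed the limit at 4.06 FPKM in WT, with 5.33 in Pcgf1-/- cells and 9.49 in rescued cells. Of 15 other PRC1 subunits, 1 was past 2-fold, Phc1, a Polyhomeotic protein of canonical PRC1, at 197, 94.4 and 161 FPKM (-1.06), which was lowest in Pcgf1-/- cells. The paralogs stood at 45.9, 51.6 and 40.3 FPKM for Pcgf2 and at 8.12, 10.2 and 10.6 FPKM for Pcgf5. None of 10 PRC2 subunits was past 2-fold, and Suz12 stood at 42.0, 42.9 and 61.6 FPKM. Rbbp4, a histone chaperone shared with other complexes, came nearest at 86.0, 164 and 138 FPKM (0.93).

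Of 9 well-expressed genes on the fibroblast list, none was higher and 3 were lower past 2-fold, and the median was -0.54. Fstl1, a secreted glycoprotein, was at 49.9 FPKM in WT, 19.7 in Pcgf1-/- cells and 36.2 in rescued cells (-1.34). Thy1, a surface glycoprotein, was at 14.2, 6.39 and 13.5 FPKM (-1.14), and Mmp2, a matrix protease, at 14.9, 7.12 and 9.54 FPKM (-1.06). Fn1, fibronectin, was at 110.1, 75.7 and 74.9 FPKM and was the most abundant of the 9. Without Fn1 the summed level of the markers listed in all 3 cultures, below the limit or not, was 238, 168 and 185 FPKM, again lowest in Pcgf1-/- cells. The part of the feeder cells in the lower genes was not tested.

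**Figure D4:**
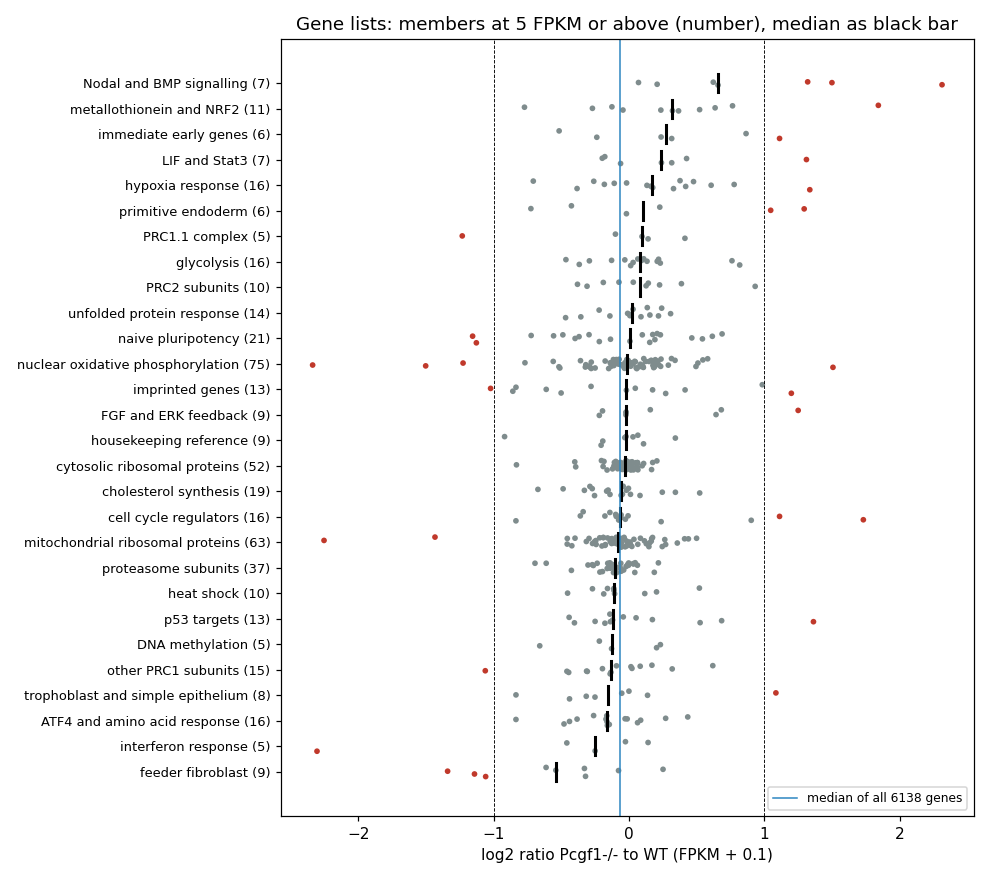
Log2 ratio of Pcgf1-/- to WT on FPKM plus 0.1 (x axis) for the well-expressed genes of each list with at least 5 of them (number in brackets), 1 point per gene, red past 2-fold. Black bars are list medians, from 0.66 for Nodal and BMP signalling to -0.54 for the fibroblast list, and the blue line is the median of all 6138 genes, -0.06.

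Large housekeeping groups held near the median of all genes. Of 52 cytosolic ribosomal protein genes none was past 2-fold, and their median log2 ratio was -0.03. None of 37 proteasome subunits (median -0.10), 19 cholesterol synthesis genes (-0.06), 16 glycolysis genes (0.08) or 16 genes of the ATF4 and amino acid response (-0.16) passed it. Gapdh, the glycolytic enzyme, was at 4768 FPKM in WT, 4666 in Pcgf1-/- cells and 3763 in rescued cells. Actb, beta-actin, was at 1761, 1540 and 1499 FPKM, and Hprt, a purine salvage enzyme, at 128, 111 and 101 FPKM. Of 75 nuclear genes of oxidative phosphorylation 1 was higher and 3 were lower, with a median of -0.02, and of 63 mitochondrial ribosomal protein genes none was higher and 2 were lower, Mrps35 and Mrps26, with a median of -0.08. Ndufs4, a complex I subunit with leading exons that differed, was at 29.3, 83.5 and 24.04 FPKM (1.51). Ndufab1, an acyl carrier protein of mitochondria, was at 350, 149 and 63.9 FPKM (-1.23) by first exons, and its last exons had a log2 ratio of -0.28. The other 2 lower genes of oxidative phosphorylation, Ndufa11 and Cox6b2, are described with their exons. Mrps26, a subunit of the small mitochondrial ribosome unit, was at 91.9, 33.97 and 46.7 FPKM (-1.43), with a leading last exon that differed. Slc25a36, a mitochondrial carrier of pyrimidine nucleotides, was at 17.0, 7.08 and 12.4 FPKM (-1.25) by first exons, and its leading first exon differed. Slc25a36 was the 1 gene past 2-fold among 89 well-expressed solute carriers, whose median was -0.03.

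Several of the largest ratios came with an exon listed in a single sample. Ndufa11, a subunit of respiratory complex I, was at 128 FPKM in WT, 25.2 in Pcgf1-/- cells and 23.8 in rescued cells (-2.34). Of the WT value, 116 FPKM lay on a last exon from 56721682 to 56721982 that was listed in WT only, and on the last exon shared by all 3 cultures Ndufa11 was at 11.2, 25.2 and 23.8 FPKM. On that shared last exon WT was therefore the lowest. Nudt21, a cleavage factor that selects poly(A) sites, was at 128, 39.2 and 38.4 FPKM (-1.70), with 104 FPKM of WT on a last exon of 49 bases listed there only. Its shared last exon had 23.5 FPKM in WT. For Ppp1r7, a regulator of protein phosphatase 1 at 19.2, 5.66 and 4.73 FPKM (-1.74), the first exon that all shared had 3.98 FPKM in WT, and 15.2 FPKM lay on another. Cdk7, the kinase that activates other cyclin-dependent kinases, was at 37.7 FPKM in WT and 9.12 in Pcgf1-/- cells (-2.04), while its shared last exon went from 5.47 to 9.12 FPKM. Lsm6, a ring protein of the U6 spliceosomal particle, was at 48.8, 16.2 and 16.8 FPKM (-1.59), of which 20.2 FPKM in WT lay on a last exon not listed elsewhere, and its shared last exon was still lower, from 28.6 to 16.2 FPKM.

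The same was seen among the higher genes. Mapre1, the microtubule end-binding protein EB1, was at 28.6 FPKM in WT, 85.4 in Pcgf1-/- cells and 29.3 in rescued cells (1.57). Its usual first exon was at 28.6, 28.9 and 29.3 FPKM, and 56.6 FPKM in Pcgf1-/- cells lay on a first exon of 53 bases at 0 in the others. Vapb, an endoplasmic reticulum membrane protein, was at 9.64, 31.4 and 26.9 FPKM (1.69), with 27.3 and 23.4 FPKM of the last 2 on a first exon at 0 in WT and 9.64, 4.16 and 3.56 FPKM on the shared one. Sfmbt2, a Polycomb group protein with MBT repeats, was at 5.33, 23.0 and 5.76 FPKM (2.09), and the Pcgf1-/- signal began from 10372436 to 10372616, where WT was at 0. Sik3, a salt-inducible kinase at 5.03, 16.03 and 4.45 FPKM (1.65), had 9.48 FPKM of the Pcgf1-/- value on a first exon listed there only, and 6.55 FPKM on the shared one. Pla2g7, which inactivates platelet-activating factor, was at 8.14, 39.7 and 5.84 FPKM (2.27) with the same leading first exon in WT and Pcgf1-/- cells (6.39 and 39.7 FPKM) and a last exon that differed in length. Mkrn2, a ubiquitin ligase, was at 5.67, 21.0 and 4.91 FPKM (1.87), with a last exon of 93 bases in Pcgf1-/- cells and 5031 bases in the others. Gstp2, a glutathione transferase with near-identical neighbours, was at 11.8, 45.2 and 24.7 FPKM (1.92), and both its ends differed, so its value is uncertain.

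For a few genes the first and last exons went opposite ways or only one moved. Pcbp3, a poly(C)-binding protein, was at 18.3 FPKM in WT and 64.2 in Pcgf1-/- cells by first exons and 18.3 and 10.6 by last exons. Nol7, a nucleolar protein, was at 48.5 and 165 FPKM by first exons and at 48.5 and 24.5 by last exons. Mrps35, a subunit of the mitochondrial ribosome, was at 51.9 and 10.8 FPKM by first exons and at 10.4 and 10.8 by last exons. For Apoa2, an apolipoprotein with the most negative log2 ratio of all (-2.60), at 39.1, 6.35 and 17.9 FPKM, the last exon was the same but the first exon in Pcgf1-/- cells lay downstream of that in WT. Fundc2, a mitochondrial outer membrane protein on the X chromosome, was the largest fall with both ends the same, at 58.6, 11.7 and 44.9 FPKM (-2.31). Flywch2 was at 17.0, 5.30 and 10.1 FPKM (-1.66), and Cox6b2, the testis form of a cytochrome oxidase subunit, at 38.0 and 13.4 FPKM in WT and Pcgf1-/- cells (-1.50).

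**Figure D5:**
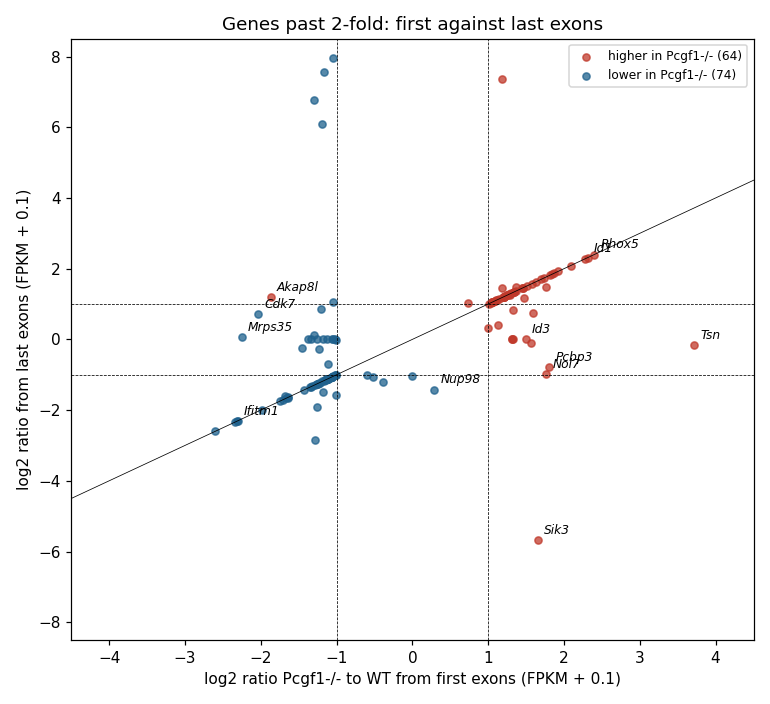
Log2 ratio of Pcgf1-/- to WT from first exons (x axis) against that from last exons (y axis), on FPKM plus 0.1, for the 64 higher and 74 lower genes. Points on the diagonal have equal ratios, points at 0 on the y axis include genes whose last exon was listed at 0 in both samples, and Nol7, Pcbp3, Sik3 and Cdk7 lie on opposite sides of 0.

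Genes without a proper name were few. Of 145 predicted or unnamed genes at 5 FPKM or above, 4 were higher and 1 was lower past 2-fold. The largest log2 ratios were 1.44 for 9030624G23Rik, 1.28 for 2610528J11Rik and 1.19 for 0610037L13Rik, and the lowest were -1.19 for 1110034G24Rik, -0.94 for 3110009E18Rik and -0.92 for 2900011O08Rik. No small RNA gene was among the 6138.

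Of 36 genes that the study names, 9 were well expressed and are described with their groups. A further 23 were listed in both samples but missed the limit in WT, in Pcgf1-/- cells or in both: Bcor, Kdr, T, Fgf5, Nes, Gata4, Gata6, Eomes, Klf4, Hhip, Hes2, Nptx1, Pla2g4f, Col6a5, Col1a2, Chrnd, Pclo, Ryr3, Pde6b, Calb2, Atp2b2, Kcnj2 and Ring1. Kdr, the Flk1 receptor, was at 2.13 FPKM in WT and 0.198 in Pcgf1-/- cells, Hhip, a Hedgehog antagonist, at 0.443 and 0.0105 FPKM, and Hes2, a Hes family repressor, at 2.04 and 0.345 FPKM. Sox2, Neurod1, Rnls and Kdm2b, the remaining 4, were not listed under a single name in both samples.

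The limit of 5 FPKM also decided which genes were seen. Just inside it, Exog was at 5.001 FPKM in Pcgf1-/- cells with 6.87 in WT, and Angel1 at 5.002 with 6.04. Man1a2, Tmtc3 and Mark1 were at 5.002, 5.002 and 5.003 FPKM in WT with 6.90, 5.51 and 5.57 in Pcgf1-/- cells. Just outside it, Hdac4, Gpr137 and Trib1 were at 4.996, 4.992 and 4.99 FPKM in Pcgf1-/- cells, and Sntb2 and Tead4 at 4.99 in WT. Tead4, a factor of trophoblast, was at 10.6 FPKM in Pcgf1-/- cells, so it would have counted as higher. In all, 446 genes reached the limit in WT only, of which 128 were past 2-fold and 25 were listed at 0 in Pcgf1-/- cells. In Pcgf1-/- cells only, 247 genes reached it, of which 72 were past 2-fold and 14 were listed at 0 in WT.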

How the data were processed

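RNA was purified with poly-T beads and libraries were made with the NEBNext Ultra kit. Per the submitters' processing notes the tools were TopHat2 2.0.12, Cufflinks 2.2.1 and HTSeq 0.6.0, with mm10. The authors deposited, for each of 3 samples, a list of transcript events (first exons, last exons, skipped exons and others) with an FPKM for each. Which program wrote these event lists is not given in the sources used here. The files hold no counts, so the depth is unknown. The lowest FPKM values of genes with 1 annotated transcript rise in steps, and if 1 step is 1 fragment, 5 FPKM in a transcript of 2 kb is about 194 fragments for WT, 212 for Pcgf1-/- cells and 201 for rescued cells.

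FPKM were summed per gene over first exons and over last exons, and the larger sum was used. Loci with several names were left out. Ratios were taken as log2 of FPKM plus 0.1, and 2-fold was the threshold. No test was run. The text names the 15 largest rises and 15 largest falls, leaving out small RNA, predicted and unnamed genes (the 3 largest each way are given), every gene of a fixed list past 2-fold, the genes the study names, and the 5 genes on either side of the limit. Other names were chosen after their values were seen. The members and the lists were chosen with earlier results of these data known, and the comparison of leading exons was chosen after seeing the data. Gene positions are from GENCODE vM21 and promoter windows from RefSeq, where 5012 genes matched. The calling was tested on simulated data with planted changes far past 2-fold, in genes well above the limit and with the same exons on both sides. That checks the code, and not calls near 2-fold, near 5 FPKM or with exons that differ between samples. The software was Python 3.11.15 with pandas 2.3.3, numpy 2.4.6 and matplotlib 3.10.9.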

Additional observations from a re-analysis of the deposited data

Results flagged for a closer look

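Loci listed under several gene names were left out of the comparison and were counted apart. Of 469 such loci at 5 FPKM or above in both samples, 9 were higher in Pcgf1-/- cells past 2-fold and 6 were lower. Of the 6138 genes with a single name, 1.04% were higher and 1.21% lower. The loci with several names were singled out because they hold data that no comparison above used, and they have no replicate check.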

How the results depend on the processing

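With 1 sample per condition no library could be left out. No paired analysis was possible because each condition has a single sample and no test was run. In all, 9 other settings chosen at the outset and 3 added after seeing the data were computed. Against 64 higher and 74 lower genes, a limit of 10 FPKM in both samples gave 38 and 44, a limit of 1 FPKM gave 158 and 278, and a mean of both of at least 5 FPKM gave 105 and 141. Genes with the same leading first and last exons gave 38 and 38, and the condition that both exon sums pass 2-fold gave 49 higher and 48 lower. Median-of-ratios scaling, with the limit on the scaled values and so 6230 genes, gave 96 and 58 and turned the median log2 ratio from -0.064 to 0.041. On the same 6138 genes it gave 96 and 52 and a median of 0.045. The median was -0.061 with a pseudocount of 1 FPKM, -0.062 from first exons, -0.061 from last exons, -0.056 at 10 FPKM, -0.081 at 1 FPKM, -0.07 by the mean of both, -0.063 without unnamed genes and -0.065 for the same leading exons. Of 112 named or listed genes past 2-fold, or among the largest, none changed direction under the scaling or the larger pseudocount, but 12 and 11 of them fell back within 2-fold. From last exons alone, 6 turned, with log2 ratios of 0.73 for Cdk7, 0.06 for Mrps35, -0.98 for Nol7, -0.78 for Pcbp3, -5.68 for Sik3 and 6.08 for 1110034G24Rik. The cause was not tested.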
